A study of Mus musculus with 6 samples.

Results

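The 10 genes followed here are known as marks of astrocytes and Bergmann glia, and their levels were read from RNA immunoprecipitation sequencing (RIP-seq) libraries of mouse cerebellum. They were Fabp7, Ptn, Gfap, Aldoc, Hopx, Apoe, Clu, Sparcl1, Hepacam and Aqp4, chosen by name as glial genes and matched by Ensembl ID to the mouse GENCODE annotation, and they are 10 of the 52550 gene IDs in the deposited table. The study asked which mRNAs of cerebellar granule cells (GCs), small excitatory neurons, are recovered with an antibody against YTHDF1 or YTHDF2. All samples were wildtype C57BL/6 mice at postnatal day 8, whose cerebella were dissociated with trypsin and are labelled as granule cells. There were 2 libraries each of anti-YTHDF1 RIP, anti-YTHDF2 RIP and input, the lysate RNA before selection. The labels do not name separate animals or cultures for the replicates, so each p-value reflects only the scatter among these libraries, which may be technical.

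YTHDF1 and YTHDF2 are cytoplasmic proteins that read N6-methyladenosine (m6A), a methyl mark on adenosines of mRNA that often lies near the stop codon. Astrocytes take up neurotransmitter, buffer water and potassium, supply lipids and secrete factors that shape synapses. Bergmann glia are the astrocytes of the cerebellar cortex, whose radial fibers span the molecular layer and are followed by granule cells as they migrate inward.

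All 10 genes were measured in all 6 libraries, although the libraries are labelled as granule cells. FPKM divides a gene's fragments by transcript length and by the mapped fragments of the library, so levels of different genes can be compared per length. In the 2 input libraries the 10 genes summed to 553 and 651 FPKM, against 337 and 477 FPKM for the 11 granule cell markers, which include Neurod1 and Zic1. In the RIP libraries the order turned, with 362 and 209 FPKM for the glial genes in the YTHDF1 RIP and 299 and 320 FPKM in the YTHDF2 RIP, while the granule cell markers summed to 550 and 357 FPKM and to 703 and 808 FPKM. These sums depend on which genes were listed. Sparcl1 alone gave 167 and 298 FPKM of the glial sums in input. A further 41 astrocyte and Bergmann glia genes summed to 366 and 328 FPKM in the YTHDF1 RIP and 461 and 631 FPKM in the YTHDF2 RIP. In input they summed to 353 and 526 FPKM, so their sums overlapped between each RIP and input. The granule cell sums leave out the 8 markers of granule cell precursors, which summed to 160 and 116 FPKM in input. For the input sums, which come from a mixed lysate, fewer cells of a type and less RNA per cell cannot be told apart.

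By mean level in input, the order was Sparcl1, Fabp7, Ptn, Aqp4, Apoe, Gfap, Aldoc, Hepacam, Clu and Hopx, with means between 233 FPKM for Sparcl1 and 3.95 FPKM for Hopx. The input values of these neighbors overlapped for Fabp7 and Ptn, for Aqp4 and Apoe, for Aldoc and Hepacam, and for Clu and Hopx, so their order is not separated by the spread between libraries.

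**Figure D1:**
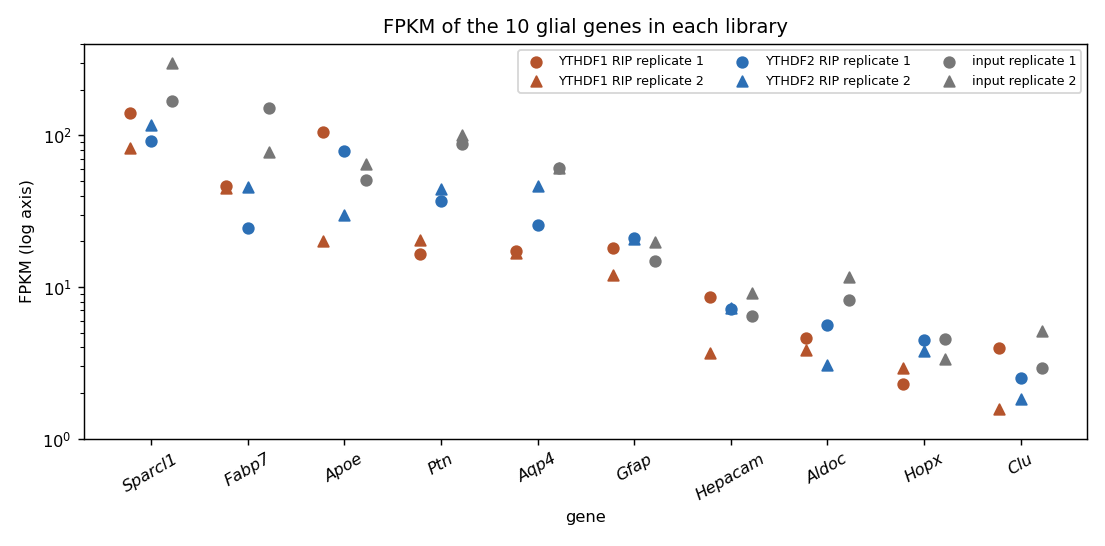
FPKM (log axis) of each of the 10 glial genes in each library, with circles for replicate 1 and triangles for replicate 2 of the YTHDF1 RIP, the YTHDF2 RIP and input, and genes ordered by mean level. The 4 RIP values of Fabp7, Ptn, Aldoc, Sparcl1 and Aqp4 all lie below both input values, and the Apoe values of each RIP split by replicate, with 105 and 20.2 FPKM in the YTHDF1 RIP.

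Because YTHDF proteins read m6A, and m6A falls in a short consensus whose best known core is GGACT, the transcripts of the 10 genes were searched for these letters on the transcript strand, where copies cannot overlap each other. All 10 genes held at least 1 copy in their principal transcript, as did 92.5% of the 9815 tested protein-coding genes, whose median transcript was longer (3249 nt against 2229 nt for the glial genes). The 5 windows of 29 bases below, read from the GENCODE M21 transcripts on GRCm38, show the copy nearest to the end of the coding sequence in genes on which the results turn, with GGACT in capitals. The Fabp7 copy begins 14 bases after the end of the coding sequence in the 3′ UTR (chr10:57788173-57788201, plus strand), the Aldoc copy lies farther into the 3′ UTR (chr11:78326547-78326575, plus strand), the Ptn copy (chr6:36743420-36743448, minus strand) and the Sparcl1 copy (chr5:104085771-104085799, minus strand) are coding, and the Hopx copy runs into the stop codon (chr5:77087729-77087757, minus strand).
Fabp7: gaagagatgacaGGACTtttgacaacttg
Aldoc: ttgaagatggggGGACTttctagaagtca
Ptn: gcctaccagcggGGACTgtggattgggca
Sparcl1: acttctcttgagGGACTttaagaaaaact
Hopx: cagatctgttacGGACTagggagccaggc
These libraries do not show whether any of these adenosines is methylated. In the longest transcripts, the density of GGACT was 0.71 to 1.56 per kb over the 10 genes with a median of 1.12 per kb, close to the median of 1.04 per kb over the tested protein-coding genes. Aqp4 had the most copies (6 in 5054 nt), while Fabp7, Hopx and Apoe had 1 each. Ptn had the highest density of the 10 in its longest transcript, 1.56 per kb with 4 copies. In its principal transcript, which gave the window above, Ptn held 1 copy at 0.62 per kb, the lowest density of the 10.

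Most of the glial genes measured lower FPKM in both RIPs than in input, but hardly any passed the test across all genes. Differences were tested with limma on log2(FPKM + 1) over 11057 genes averaging 1 FPKM or more, all 10 glial genes among them, with a threshold of 0.05 on the Benjamini-Hochberg adjusted p. In the YTHDF1 RIP against input, 1 of the 10 (Ptn) was called lower and 0 higher, where 1.94% of all tested genes were called lower and 0.624% higher. In the YTHDF2 RIP against input, 0 of the 10 were called, where 6.66% of all tested genes were called lower and 11.9% higher. Before adjustment, 3 of the 10 had a limma p under 0.05 in each comparison, all of them lower. By that rule 13.5% of all genes were lower and 13.2% higher in the YTHDF1 RIP, and 13.6% were lower and 24% higher in the YTHDF2 RIP. These percentages move with the scaling of the libraries, which is given with the dependence on processing.

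The direction was more uniform than the calls. All 10 fitted log2 changes were negative in the YTHDF1 RIP, with a median of -0.75 against 0.05 over all tested genes, and 8 of 10 were negative in the YTHDF2 RIP, with a median of -0.72 against 0.26. The uniform direction in the YTHDF1 RIP rested in part on its replicate 2, without which 4 of the 10 (Gfap, Apoe, Clu and Hepacam) were positive and the median was -0.62, while without its replicate 1 the median was -1.20 and 0 were positive. Without input replicate 2, 1 of the 10 (Gfap) was positive in the YTHDF1 RIP, and with a correction for transcript length and GC content 2 were (Fabp7 and Hopx). Both RIP libraries lay below both input libraries for 6 of the 10 genes in the YTHDF1 RIP (30.2% of all tested genes) and for 6 in the YTHDF2 RIP (24.9%). They lay above input for 0 of the 10 in the YTHDF1 RIP (33.8% of all tested genes) and for 1 in the YTHDF2 RIP (41.5%). Both comparisons use the same 2 input libraries, so they are not independent of each other. No glial gene reached a ratio of group means over 2 in either RIP, the cutoff for enrichment in the study's methods, a cutoff passed without a test by 23.3% of all genes in the YTHDF1 RIP and by 34.5% in the YTHDF2 RIP.

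**Figure D2:**
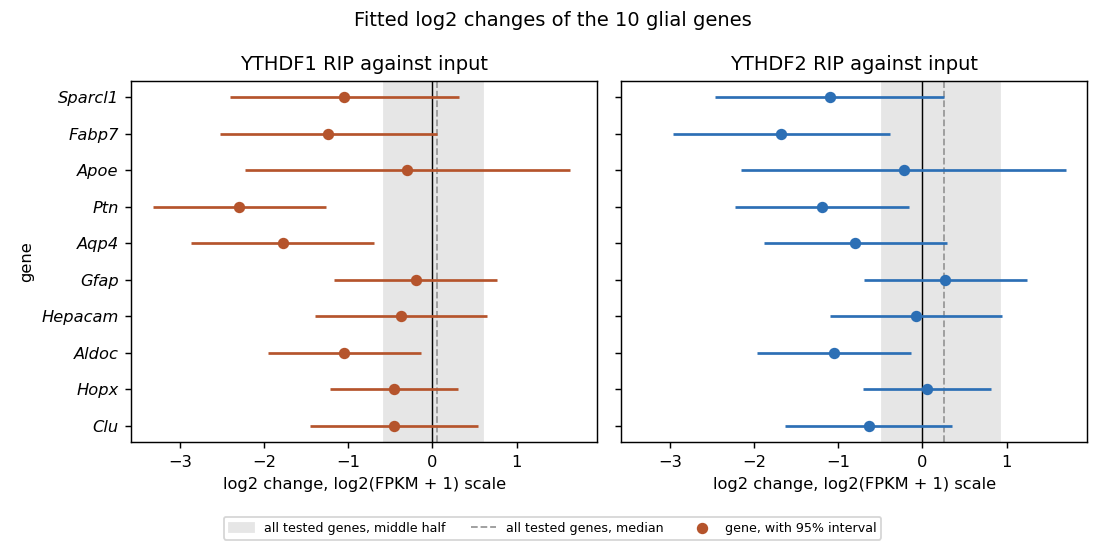
Fitted log2 change on the log2(FPKM + 1) scale, with its 95% interval, of each glial gene in the YTHDF1 RIP against input (left) and the YTHDF2 RIP against input (right), 2 libraries a group. The gray band spans the quartiles of all 11057 tested genes and the dashed line their median, 0.05 on the left and 0.26 on the right. Ptn on the left, at -2.29, is the single call.

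FPKM is a share of each library, and the libraries differed in make-up. The 10 gene IDs of highest FPKM in a library held 74.4% to 86.5% of its sum in the RIPs. In input this share was 82.8% and 82.6%. Mitochondrially encoded genes held 0.0892% to 3.68% of the FPKM sum in the 4 RIP libraries, against 18.4% and 17.99% in input, and nuclear protein-coding genes held 10.1% to 18.9% in the RIPs, against 7.71% and 8.26% in input. As a share of nuclear protein-coding FPKM, the 10 glial genes together held 0.537% and 0.320% in the YTHDF1 RIP libraries. They held 0.428% and 0.351% in those of the YTHDF2 RIP, and 0.841% and 0.905% in input, with no overlap between RIP and input. In each RIP, replicate 2 had more genes at 1 FPKM or more than replicate 1 (9503 to 12627 over the 4 libraries). The files give no read counts, so the depth behind a value is unknown.

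Ptn encodes pleiotrophin, a secreted heparin-binding growth factor of glia (ENSMUSG00000029838, chromosome 6, 36714929 to 36810220). Its level was 16.4 and 20.5 FPKM in the YTHDF1 RIP, 36.7 and 44.4 FPKM in the YTHDF2 RIP, and 87.0 and 101 FPKM in input. The 3 groups did not overlap: both YTHDF1 libraries were lowest and both input libraries highest. In the YTHDF1 RIP, Ptn averaged 18.4 ± 2.92 FPKM, against 94.0 ± 9.91 FPKM in input (SD, n = 2 each), a log2 change of -2.29 (SE 0.44, limma adjusted p = 0.0457), and only 1.34% of tested genes had a lower log2 change. In the YTHDF2 RIP the log2 change was -1.19 (SE 0.44, limma adjusted p = 0.0949), which did not pass. The call in the YTHDF1 RIP held in 7 of 14 alternative settings and was lost when any library of the comparison was left out (limma adjusted p = 0.166 without YTHDF1 RIP replicate 1, 0.0952 without YTHDF1 RIP replicate 2, 0.317 without input replicate 1 and 0.371 without input replicate 2). It was also lost without a filter on low genes (limma adjusted p = 0.149) and with a correction for transcript length and GC content (0.0881, or 0.0512 together with a replicate block). The log2 change stayed between -2.45 and -1.66 in all 14 settings. With a library of this comparison left out hardly any call remained over all tested genes, and 0 remained without a filter. Those losses are therefore not particular to Ptn.

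The related growth factor gene Mdk (midkine) and the receptors of pleiotrophin were listed beside it, 6 genes of which 5 were tested, and 0 were called in either RIP (3 had an unadjusted limma p under 0.05 in each). The most abundant were Ptprs, a receptor phosphatase for heparan and chondroitin sulfate proteoglycans, Sdc3, a cell-surface heparan sulfate proteoglycan, and Ncl, nucleolin. Ptprs measured 64.5 and 51.1 FPKM in the YTHDF1 RIP and 46.3 and 55.2 FPKM in the YTHDF2 RIP, against 21.1 and 28.8 FPKM in input. Ncl measured 3.67 and 5.91 FPKM in the YTHDF1 RIP and 2.89 and 17.6 FPKM in the YTHDF2 RIP, against 27.1 and 23.7 FPKM in input. Ptn and the genes listed beside it thus did not share 1 direction. Of the 5 tested, which include Mdk, 2 had a positive log2 change in the YTHDF1 RIP and 3 in the YTHDF2 RIP, although none passed.

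Sparcl1 encodes hevin, a secreted matrix protein of astrocytes that promotes formation of excitatory synapses (ENSMUSG00000029309, chromosome 5, 104079111 to 104113733). It was the most abundant of the 10, with 140 and 82.5 FPKM in the YTHDF1 RIP, 91.8 and 117 FPKM in the YTHDF2 RIP, and 167 and 298 FPKM in input. All RIP libraries were below both input libraries, but the input libraries themselves lay far apart. The log2 change was -1.05 (SE 0.58, limma adjusted p = 0.288) in the YTHDF1 RIP and -1.10 (SE 0.58, limma adjusted p = 0.209) in the YTHDF2 RIP, and neither passed. An antisense gene, Gm26703, overlaps Sparcl1, and their reads cannot be told apart here, because no source used says whether counting took strand into account. It reached at most 1.15 FPKM in any library.

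Among 7 other genes of the SPARC family, 6 were tested and 1 was called, Spock2, which encodes testican-2, a secreted proteoglycan of the brain. Spock2 measured 25.6 and 107 FPKM in the YTHDF1 RIP and 141 and 309 FPKM in the YTHDF2 RIP, against 12.2 and 26.2 FPKM in input. It was higher in the YTHDF2 RIP, where 11.9% of all tested genes were called higher, with a log2 change of 3.47 (SE 0.79, limma adjusted p = 0.0286). The call was lost without YTHDF2 RIP replicate 2, without either input library, without a filter on low genes, and with the length and GC correction. Without either input library or without a filter, nearly all calls in the YTHDF2 RIP over all tested genes were lost, which holds for the genes below too. Sparc, the founding member of the family, measured 13.5 and 11.5 FPKM in the YTHDF1 RIP and 14.5 and 14.5 FPKM in the YTHDF2 RIP, against 23.4 and 28.3 FPKM in input. It lay below input in both RIPs like Sparcl1 and was not called in either. Fstl1, a secreted follistatin-like protein, was the remaining one of the 3 most abundant and was not called.

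Apoe encodes apolipoprotein E, the main lipid carrier secreted by astrocytes, which microglia make too (ENSMUSG00000002985, chromosome 7, 19696109 to 19699188). It measured 105 and 20.2 FPKM in the YTHDF1 RIP, 79.3 and 29.95 FPKM in the YTHDF2 RIP, and 50.6 and 64.5 FPKM in input. In each RIP, replicate 1 was above both input libraries and replicate 2 below both, so the groups overlapped fully. The fitted log2 changes were -0.30 (SE 0.83, limma adjusted p = 0.846) in the YTHDF1 RIP and -0.22 (SE 0.83, limma adjusted p = 0.867) in the YTHDF2 RIP, with the largest standard error of the 10 genes. The direction turned to 0.86 in the YTHDF1 RIP without its replicate 2 and to 0.47 in the YTHDF2 RIP without its replicate 2, neither of them past the threshold. Summed markers of some other cell types were also higher in replicate 1 than in replicate 2 of each RIP. The 10 microglia markers (8 of them tested) summed to 40.5 and 20.5 FPKM in the YTHDF1 RIP and 46.8 and 25.5 FPKM in the YTHDF2 RIP, against 28.3 and 24.0 FPKM in input. The 8 endothelial and mural markers (7 tested) summed to 48.6 and 20.7 FPKM in the YTHDF1 RIP and 51.3 and 36.6 FPKM in the YTHDF2 RIP, against 25.9 and 34.9 FPKM in input. In the YTHDF1 RIP both of these sums, like Apoe, were above both input libraries in replicate 1 and below both in replicate 2. In the YTHDF2 RIP, replicate 2 was not below both input libraries for either sum. The erythroid, Purkinje cell and meningeal marker sums were instead higher in replicate 2 of each RIP, for example 57.5 and 200 FPKM in the YTHDF1 RIP and 48.6 and 89.2 FPKM in the YTHDF2 RIP for the 5 erythroid markers, against 106 and 80.7 FPKM in input. The part of these cell types in the Apoe values was not tested.

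Clu encodes clusterin, an extracellular chaperone that also travels on lipoproteins (ENSMUSG00000022037, chromosome 14, 65968483 to 65981547). It was the least abundant of the 10 on average, with 3.95 and 1.57 FPKM in the YTHDF1 RIP, 2.49 and 1.83 FPKM in the YTHDF2 RIP, and 2.91 and 5.13 FPKM in input. The YTHDF1 RIP overlapped input and the YTHDF2 RIP lay below it. Neither log2 change passed, at -0.46 (SE 0.43, limma adjusted p = 0.520) in the YTHDF1 RIP and -0.64 (SE 0.43, limma adjusted p = 0.307) in the YTHDF2 RIP.

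The list beside Apoe and Clu held lipoprotein receptors and lipid exporters, and also Lcat, Apod and Apoc1. Of 11 listed genes 9 were tested, 7 with a positive log2 change in each RIP, while Lcat and Apod were negative. The median was 0.62 in the YTHDF1 RIP and 0.72 in the YTHDF2 RIP. Both RIP libraries lay above both input libraries for 5 of the 9 in the YTHDF1 RIP (33.8% of all tested genes) and for 7 in the YTHDF2 RIP (41.5%). They lay below input for 1 in each (30.2% and 24.9% of all tested genes). The YTHDF1 RIP gave 0 calls (2 at an unadjusted limma p under 0.05), and the YTHDF2 RIP gave 2, both higher, Lrp8 among them. Over all tested genes 11.9% were called higher in the YTHDF2 RIP. Lrp8, the Apoe and Reelin receptor of neurons, measured 2.66 and 10.04 FPKM in the YTHDF1 RIP and 8.49 and 30.3 FPKM in the YTHDF2 RIP, against 1.28 and 1.58 FPKM in input, a log2 change of 2.83 (SE 0.69, limma adjusted p = 0.0330) in the YTHDF2 RIP. All 4 RIP libraries were above both input libraries for Lrp8. The call was lost without YTHDF2 RIP replicate 2, without either input library and without a filter on low genes. Lrp1, a large endocytic receptor, and Abca1, a cholesterol exporter, were among the 3 most abundant with Lrp8 and were not called.

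Fabp7 encodes the brain fatty acid binding protein of radial and Bergmann glia (ENSMUSG00000019874, chromosome 10, 57784881 to 57788450). It measured 46.0 and 45.1 FPKM in the YTHDF1 RIP, 24.4 and 45.4 FPKM in the YTHDF2 RIP, and 152 and 77.8 FPKM in input. Every RIP library was below both input libraries, and input replicate 1 was well above input replicate 2. The log2 change was -1.24 (SE 0.55, limma adjusted p = 0.204) in the YTHDF1 RIP and -1.68 (SE 0.55, limma adjusted p = 0.0718) in the YTHDF2 RIP. It passed in the YTHDF2 RIP with libraries scaled to nuclear protein-coding genes (limma adjusted p = 0.0492) or by median of ratios (0.0418). Fabp7 had the shortest transcript of the 10, 880 nt, and with the correction for length and GC content its log2 change shrank to 0.03 in the YTHDF1 RIP and -0.08 in the YTHDF2 RIP.

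Aldoc encodes aldolase C, a glycolytic enzyme of astrocytes that Purkinje cells of the cerebellum also express (ENSMUSG00000017390, chromosome 11, 78322968 to 78327781). It measured 4.61 and 3.82 FPKM in the YTHDF1 RIP, 5.59 and 3.08 FPKM in the YTHDF2 RIP, and 8.18 and 11.5 FPKM in input. The RIPs lay below input without overlap and overlapped each other. The log2 changes were nearly the same, -1.04 (SE 0.39, limma adjusted p = 0.146) in the YTHDF1 RIP and -1.05 (SE 0.39, limma adjusted p = 0.0963) in the YTHDF2 RIP, and neither passed. The length and GC correction brought Aldoc in the YTHDF2 RIP past the threshold (limma adjusted p = 0.0472), and the log2 change stayed between -1.40 and -0.70 in all 14 settings. The 7 Purkinje cell markers (6 tested, 0 called) summed to 20.3 and 29.9 FPKM in the YTHDF1 RIP and 22.2 and 43.4 FPKM in the YTHDF2 RIP, against 47.0 and 48.6 FPKM in input, and their part in the Aldoc values was not tested.

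The relatives of these enzymes and carriers, among them Fabp3, Fabp5 and Aldoa, had 5 gene IDs in the table, 3 of them tested and 0 called in either RIP (0 and 1 with an unadjusted limma p under 0.05). Fabp5, a fatty acid carrier of many tissues, measured 14.8 and 10.2 FPKM in the YTHDF1 RIP and 12.6 and 8.74 FPKM in the YTHDF2 RIP, against 22.6 and 17.9 FPKM in input. It lay below input in both RIPs as Fabp7 did, and all 3 tested relatives had negative log2 changes in both.

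Aqp4 encodes aquaporin-4, the water channel of astrocyte end feet (ENSMUSG00000024411, chromosome 18). It measured 17.2 and 16.8 FPKM in the YTHDF1 RIP, 25.8 and 46.3 FPKM in the YTHDF2 RIP, and 60.4 and 61.1 FPKM in input. As with Ptn, both YTHDF1 libraries were lowest and both input libraries highest, and the replicates of the YTHDF1 RIP and of input lay close together. The log2 change was -1.78 (SE 0.46, limma adjusted p = 0.0778) in the YTHDF1 RIP and -0.80 (SE 0.46, limma adjusted p = 0.249) in the YTHDF2 RIP. The first of these passed with median-of-ratios scaling (limma adjusted p = 0.0491). The antisense gene AC133525.2, which overlaps Aqp4, was not analysed here.

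Hepacam encodes an adhesion protein of astrocytes that holds the membrane protein Mlc1 and the chloride channel Clcn2 at cell junctions (ENSMUSG00000046240, chromosome 9, 37367351 to 37386575). It measured 8.52 and 3.69 FPKM in the YTHDF1 RIP, 7.14 and 7.30 FPKM in the YTHDF2 RIP, and 6.42 and 9.11 FPKM in input. The groups overlapped in both comparisons. The log2 change was -0.37 (SE 0.44, 95% interval -1.40 to 0.65) in the YTHDF1 RIP and -0.08 (SE 0.44, 95% interval -1.10 to 0.95) in the YTHDF2 RIP, intervals that include changes of 2-fold downward.

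Of 10 listed partners of Hepacam and Aqp4 at the end foot, 7 were tested. The YTHDF1 RIP gave 0 calls (1 at an unadjusted limma p under 0.05). The YTHDF2 RIP, where 11.9% of all tested genes were called higher, gave 1, higher. This was Kcnj10, the Kir4.1 potassium channel of astrocytes, with 9.36 and 14.1 FPKM in the YTHDF1 RIP and 20.2 and 67.0 FPKM in the YTHDF2 RIP, against 6.98 and 8.43 FPKM in input. YTHDF2 RIP replicate 2 stood far above the other libraries, and the log2 change of 2.13 (SE 0.59, limma adjusted p = 0.0457) lost its call in 7 of 14 settings, among them leaving out that library, either input library or either YTHDF1 RIP library. Both RIPs thus measured below input for the water channel gene, short of the threshold, while the potassium channel gene was called higher in the YTHDF2 RIP. Dag1, the dystroglycan that anchors the end foot to the basal lamina, and Mlc1 were the other two of the 3 most abundant and were not called.

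Gfap encodes the glial fibrillary acidic protein, the intermediate filament of astrocytes (ENSMUSG00000020932, chromosome 11, 102887336 to 102900912). It measured 17.9 and 12.1 FPKM in the YTHDF1 RIP, 21.1 and 20.6 FPKM in the YTHDF2 RIP, and 14.7 and 19.8 FPKM in input. The YTHDF2 RIP lay just above input, 1 of 10 genes to do so beside 41.5% of all tested genes, and the YTHDF1 RIP overlapped input. The log2 change was -0.20 (SE 0.42, limma adjusted p = 0.789) in the YTHDF1 RIP and 0.27 (SE 0.42, limma adjusted p = 0.666) in the YTHDF2 RIP, where it turned to -0.06 with median-of-ratios scaling and stood at the median of all genes (50.6% of tested genes lower). Gm26668, a noncoding gene on the other strand, overlaps Gfap and stayed at or under 0.394 FPKM. Of 4 listed filament and linker genes 3 were tested, Vim, Nes and Plec. In the YTHDF2 RIP 1 of the 3 was called higher, beside 11.9% of all tested genes. Plec, which encodes the linker plectin, was called higher in the YTHDF2 RIP at a log2 change of 1.49 (SE 0.38, limma adjusted p = 0.0376), a call that ended when any of 5 libraries was left out in turn, all but YTHDF2 RIP replicate 1, and also without a filter on low genes and with the length and GC correction.

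Hopx encodes a small homeodomain protein that does not bind DNA and marks Bergmann glia and other radial glia (ENSMUSG00000059325, chromosome 5, 77086988 to 77115121). It measured 2.30 and 2.90 FPKM in the YTHDF1 RIP, 4.46 and 3.80 FPKM in the YTHDF2 RIP, and 4.54 and 3.36 FPKM in input. The YTHDF1 RIP was below input, and the YTHDF2 RIP lay inside the range of input. The log2 change was -0.45 (SE 0.33, limma adjusted p = 0.399) in the YTHDF1 RIP and 0.06 (SE 0.33, limma adjusted p = 0.912) in the YTHDF2 RIP, where it turned to -0.11 and -0.21 under the 2 other scalings. With the length and GC correction, the value in the YTHDF2 RIP was 1.2 and passed as higher (limma adjusted p = 0.0325). Hopx has a short transcript of 1261 nt, and the antisense gene Hopxos that overlaps it measured up to 0.812 FPKM.

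Because Fabp7 and Hopx moved with that correction, the log2 changes were set against transcript length. Among the tested protein-coding genes, the median log2 change in the YTHDF2 RIP was -0.21 in the shortest of 3 equal groups (up to 2570 nt), 0.38 in the middle and 0.62 in the longest, and in the YTHDF1 RIP it was -0.15, 0.18 and 0.17. Of the 10 glial genes 5 fell in the shortest group, 4 in the middle and 1 in the longest, and their median length was 2603 nt against 3396 nt over all tested protein-coding genes. With the genes split by length into 10 equal groups, Fabp7, Ptn, Sparcl1, Aldoc and Aqp4 lay below the lower quartile of their own group in both RIPs. Apoe, Clu, Gfap and Hepacam lay between the quartiles in both, and Hopx lay between them in the YTHDF1 RIP and above them in the YTHDF2 RIP. With the correction, the median of the 10 genes was -0.71 in the YTHDF1 RIP and -0.54 in the YTHDF2 RIP, beside 0.00 and 0.15 over all tested genes.

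**Figure D3:**
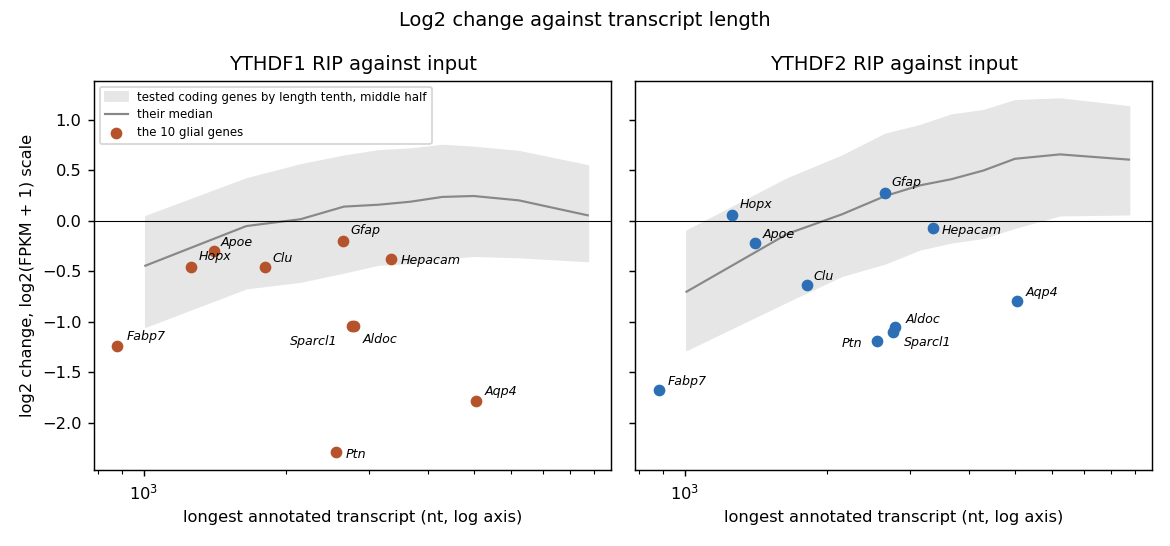
Log2 change on the log2(FPKM + 1) scale against the length of the longest annotated transcript (log axis) in the YTHDF1 RIP against input (left) and the YTHDF2 RIP against input (right). Points are the 10 glial genes, the line is the median and the band the quartiles of the tested protein-coding genes in 10 length groups. Fabp7 sits low at the short end at 880 nt, and Ptn, Sparcl1, Aldoc and Aqp4 sit below the band.

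No glial gene passed the test between the RIPs, which took their libraries as unpaired. In the YTHDF2 RIP against the YTHDF1 RIP, 0 of the 10 were called by limma, where 0.00904% of all tested genes (1 gene, higher) were called. Before adjustment, 1 of the 10 (Ptn) had a limma p under 0.05 and was higher, where 3.54% of all genes were higher and 0.778% lower by that rule. Both YTHDF2 libraries lay above both YTHDF1 libraries for 4 genes, Ptn, Aqp4, Gfap and Hopx (21.6% of all tested genes), and below them for 0 (8.09%). Ptn averaged 40.6 ± 5.44 FPKM in the YTHDF2 RIP and 18.4 ± 2.92 FPKM in the YTHDF1 RIP (SD, n = 2 each), a log2 change of 1.10 (SE 0.44, limma adjusted p = 0.864). Aqp4 averaged 36.0 ± 14.5 FPKM in the YTHDF2 RIP and 17.0 ± 0.297 FPKM in the YTHDF1 RIP, a log2 change of 0.98 (SE 0.46, limma adjusted p = 0.864). Ptn and Aqp4 were the glial genes with a ratio of means over 2 here, 2 of 10 beside 13% of all tested genes. The remaining genes had log2 changes between -0.44 for Fabp7 and 0.51 for Hopx, and the median of the 10 was 0.19 against 0.22 over all tested genes. That median depended on single libraries, at 0.57 (9 of 10 positive) without YTHDF1 RIP replicate 1, -0.16 (4 of 10 positive) without YTHDF1 RIP replicate 2 and 0.41 without YTHDF2 RIP replicate 2, and it was -0.05 and -0.08 under the 2 other scalings. For Sparcl1 and Aldoc the difference between the RIPs was -0.05 (95% interval -1.41 to 1.31) and -0.01 (95% interval -0.92 to 0.91), which leaves room for a 2-fold difference in the case of Sparcl1.

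Other astrocyte and Bergmann glia genes were more mixed. Of 42 listed genes, 41 had a row and 35 were tested. The YTHDF1 RIP gave 0 calls, with 13 positive log2 changes and a median of -0.19. An unadjusted limma p under 0.05 was reached by 7, where 13.5% of all tested genes were lower and 13.2% higher by that rule. In the YTHDF2 RIP 3 were called higher and 1 lower, where 11.9% of all tested genes were called higher and 6.66% lower. There, 21 had a positive log2 change and the median was 0.30, beside 0.26 over all tested genes. The median of this list changed sign with median-of-ratios scaling (-0.00) and with the length and GC correction (-0.04). It was 0.51 without YTHDF2 RIP replicate 1, 0.06 without YTHDF2 RIP replicate 2 and 0.02 without input replicate 1. The median in the YTHDF1 RIP was -0.33 without YTHDF1 RIP replicate 1, -0.32 without input replicate 1 and -0.13 without input replicate 2.

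Besides Kcnj10, the genes called higher in the YTHDF2 RIP were Gpr37l1 and Ndrg2. Gpr37l1, an orphan G protein-coupled receptor of astrocytes and Bergmann glia, measured 25.3 and 15.7 FPKM in the YTHDF1 RIP and 33.7 and 33.7 FPKM in the YTHDF2 RIP, against 6.71 and 9.26 FPKM in input, a log2 change of 1.96 (SE 0.43, limma adjusted p = 0.0257) in the YTHDF2 RIP. Ndrg2, a cytoplasmic protein abundant in astrocytes, measured 16.9 and 23.7 FPKM in the YTHDF1 RIP and 58.7 and 81.9 FPKM in the YTHDF2 RIP, against 17.2 and 23.0 FPKM in input, a log2 change of 1.75 (SE 0.45, limma adjusted p = 0.0384) in the YTHDF2 RIP. Ndrg2 in the YTHDF1 RIP overlapped input, whereas Gpr37l1 was above input in all 4 RIP libraries. Mt3, a metallothionein of the brain that binds zinc, was lower, with 2.11 and 3.45 FPKM in the YTHDF1 RIP and 2.38 and 1.69 FPKM in the YTHDF2 RIP, against 8.30 and 11.1 FPKM in input, a log2 change of -1.81 (SE 0.36, limma adjusted p = 0.0217) in the YTHDF2 RIP. All of these calls ended without YTHDF2 RIP replicate 2, without either input library and without a filter on low genes. The Ndrg2 call ended also with median-of-ratios scaling and with the length and GC correction. Without either input library or without a filter, nearly all calls over all tested genes ended too.

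The most abundant genes of this list were Gdf10, Ndrg2 and Slc1a3. Gdf10, a bone morphogenetic protein relative made by Bergmann glia, measured 67.7 and 27.2 FPKM in the YTHDF1 RIP and 76.5 and 72.5 FPKM in the YTHDF2 RIP, against 16.6 and 26.5 FPKM in input. Slc1a3, the glutamate transporter GLAST of Bergmann glia, measured 21.6 and 9.72 FPKM in the YTHDF1 RIP and 18.5 and 17.0 FPKM in the YTHDF2 RIP, against 36.2 and 66.1 FPKM in input. These genes of the same cells lay on opposite sides of input in all 4 RIP libraries, although neither passed (limma adjusted p = 0.0651 for Gdf10 and 0.0977 for Slc1a3 in the YTHDF2 RIP).

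**Figure D4:**
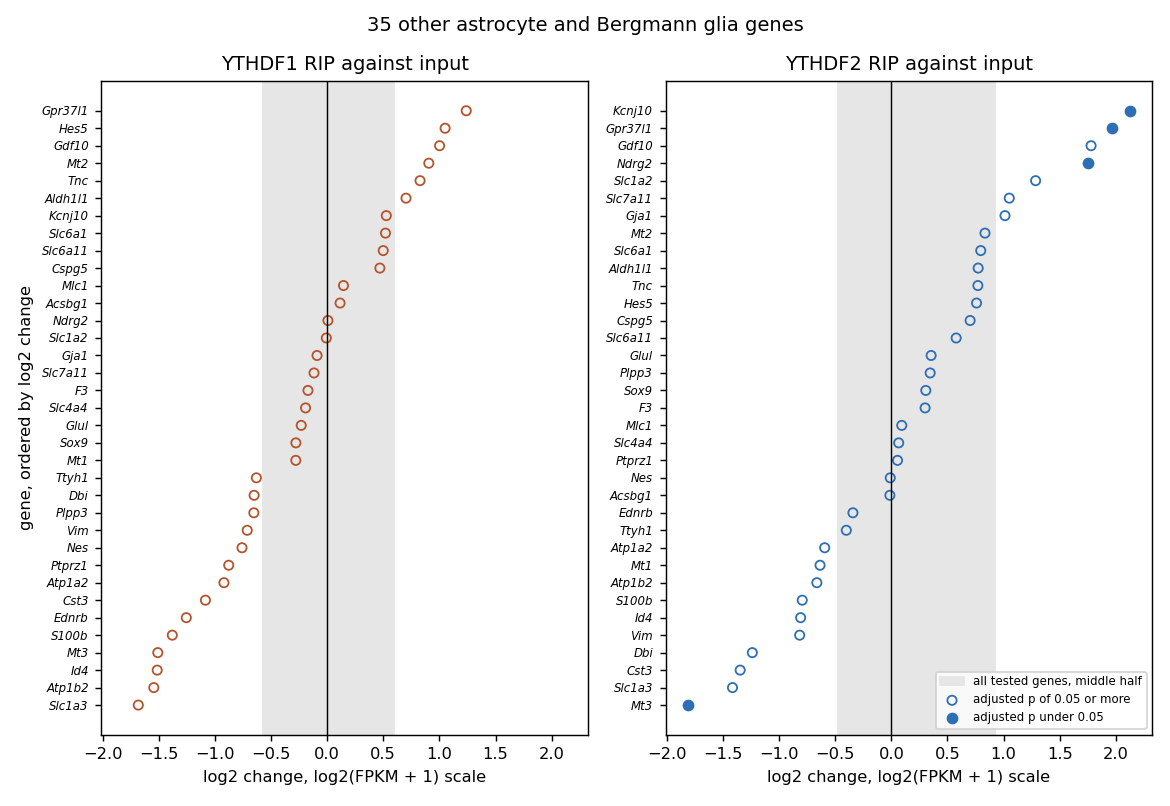
Log2 change on the log2(FPKM + 1) scale of the 35 other astrocyte and Bergmann glia genes tested, ordered by value, in the YTHDF1 RIP against input (left) and the YTHDF2 RIP against input (right). Filled points passed an adjusted p of 0.05 and open points did not, and the gray band spans the quartiles of all tested genes. Kcnj10, Gpr37l1 and Ndrg2 at the top right and Mt3 at the bottom right are the 4 calls.

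Over the 6 libraries the 10 genes did not follow 1 pattern. Pearson correlations of log2(FPKM + 1) between pairs of them ran from -0.36 for Fabp7 and Gfap to 0.96 for Ptn and Aqp4, a description over 6 libraries that share their make-up within groups. Sparcl1 (0.88), Aldoc (0.84) and Ptn (0.83) followed the mean of the 10 most closely and Hopx (0.39) least. Outside the glial lists, the tested genes whose values were most like that mean were Bag2 (0.99), Emc3 (0.99), Lsm1 (0.99), Rab8a (0.98) and Aifm1 (0.98), among them Rab8a with 4.41 and 1.83 FPKM in the YTHDF1 RIP and 3.95 and 3.61 FPKM in the YTHDF2 RIP, against 6.04 and 7.03 FPKM in input.

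Markers of the other cell types of the cerebellum served to read the glial values in context. The YTHDF1 RIP gave 0 calls among the genes of the 10 marker lists. Called higher in the YTHDF2 RIP were Cntn2 of granule cells, Gli1, Gli2 and Mycn of their precursors, Slc32a1 of GABAergic interneurons, Olig1 and Gpr17 of the oligodendrocyte lineage, Tmem119 of microglia and Foxj1 of ependymal cells, and Igf2 of the meninges was called lower. All of these calls ended without either input library and without a filter on low genes. In those settings nearly all calls in the YTHDF2 RIP over all tested genes ended too. In the main fit 11.9% of all tested genes were called higher in the YTHDF2 RIP and 6.66% lower. The 9 oligodendrocyte lineage genes, of another glial type, had a median log2 change of 0.70 in the YTHDF1 RIP and 1.16 in the YTHDF2 RIP, with 8 of 9 positive in each, beside -0.75 and -0.72 for the 10 astrocyte and Bergmann glia genes. Granule cell genes (8 tested, 5 and 7 positive) had medians of 0.52 in the YTHDF1 RIP and 0.91 in the YTHDF2 RIP. Their precursors' genes (8 tested, 5 and 6 positive) had medians of 0.52 and 1.40. Of these, Top2a measured 5.85 and 9.06 FPKM in the YTHDF1 RIP and 4.75 and 9.81 FPKM in the YTHDF2 RIP. In input it measured 18.3 and 20.6 FPKM. Mki67 measured 7.90 and 13.7 FPKM in the YTHDF1 RIP and 6.61 and 66.5 FPKM in the YTHDF2 RIP. In input it measured 68.3 and 35.2 FPKM. The 6 tested Purkinje cell genes had medians of -0.80 in the YTHDF1 RIP and -0.79 in the YTHDF2 RIP, close to those of the 10 glial genes. Medians of the interneuron, microglia, endothelial and mural, meningeal, erythroid and ependymal lists lay between -0.14 and 0.60 in the YTHDF1 RIP and between -0.28 and 1.11 in the YTHDF2 RIP. Both upper ends came from the ependymal and choroid plexus list, of which only Foxj1 was tested (mean 1.05 FPKM). These medians are set side by side without a test of their difference. The most abundant markers were Neurod1, Zic1 and Cntn2 for granule cells, Ccnd2, Mki67 and Mycn for precursors, Car8, Itpr1 and Calb1 for Purkinje cells, Lhx1, Lhx5 and Slc32a1 for interneurons, and for oligodendrocytes they included Gpr17 and Cnp. Those of the remaining lists were C1qb, Csf1r and C1qa for microglia, Cldn5, Rgs5 and Vtn for vessels, Col1a1, Igf2 and Col1a2 for meninges, Hbb-bs, Hba-a2 and Hba-a1 for erythroid cells, and Foxj1, Ttr and Ccdc153 for ependyma and choroid plexus.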

How the data were processed

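RIP-seq was performed by the authors with an EZ-Magna RIP kit and antibodies against YTHDF1 or YTHDF2. The deposited table gives 1 FPKM value per gene and library, made by the authors, for 52550 gene IDs and 6 libraries, and all of its columns were used. For mapping, the study describes STAR 2.5 and Cufflinks 2.2.1 with GRCm38, whereas the submitters' processing notes list mm8, mm9 and Bowtie 0.12.2. It is not settled which route produced the table. The kits named are TruSeq RNA and TruSeq Stranded. Postnatal day 8 is the age in the labels, and the study describes a range ending there. No nonspecific antibody libraries were used here.

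FPKM times length did not fall on whole steps often enough to recover reads, and a count test was not run. Of the values up to 5 steps, 34.9% to 45.2% lay within 0.1 of a whole step. A step not fitted to the values would give 20% by chance. Each step was fitted to these same values, so 20% is not the chance level for these shares. limma 3.58.1 in R 4.3.3 was fitted to log2(FPKM + 1), which understates changes of low genes. A single fit held the 6 libraries as 3 groups (3 residual degrees of freedom, eBayes with trend) and 3 contrasts. The 11057 genes averaging 1 FPKM or more were tested 2-sided, with Benjamini-Hochberg adjustment over all of them and a threshold of 0.05. The script was tested on simulated data. Names, positions, lengths and sequences came from GENCODE M21 (GRCm38), where 147 IDs had no entry, 16 of them tested. Each gene's longest transcript gave length, GC content and GGACT density. Its principal transcript gave the printed windows, a choice made after seeing the data.

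The 10 genes and all 18 lists were chosen with earlier results of these data known. All 10 genes are named. Of every other list the text gives the genes past the threshold and the 3 most abundant, and the 5 genes most like the mean of the 10 are named as a description. Some genes of these lists are not reported here by name. The alternatives were a pseudocount of 0.1, no filter, a filter at 5 FPKM, scaling to nuclear protein-coding genes, median-of-ratios scaling, a replicate block, a length and GC correction, both together, a ratio of means over 2 and each library left out in turn.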

Additional observations from a re-analysis of the deposited data

How the results depend on the processing

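Ptn in the YTHDF1 RIP, the call among the 10 genes, passed in 7 of 14 settings and kept its sign in all of them. The number of the 10 genes called in the YTHDF1 RIP (1) was 0 without a filter and with the length and GC correction. It was 2 with median-of-ratios scaling (Ptn and Aqp4). The ratio over 2 gave 0, but it counts only higher genes and so could not count Ptn, whose ratio of means was 0.196. In the YTHDF2 RIP (0) the number called was 1 with either scaling (Fabp7) and 2 with the correction (Aldoc lower, Hopx higher). Between the RIPs (0) it was 2 by the ratio over 2. Over all genes, the calls in the YTHDF1 RIP (284) were 0 without a filter, 604 and 793 with scaling to nuclear protein-coding genes and by median of ratios, 51 with the correction and 0 to 802 with a library left out. In the YTHDF2 RIP (2049) they were 0 without a filter, 1243 at 5 FPKM, 1234 with the correction and 0 to 2141 with a library left out. Between the RIPs the 1 call became 0 with a pseudocount of 0.1, without a filter and at 5 FPKM, and 0 to 1 with a library left out. Without a filter, 3922 and 5558 genes still had an unadjusted limma p under 0.05 in the YTHDF1 and YTHDF2 RIP against input. The causes were not tested.

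The share of calls that were higher was 24.3% in the YTHDF1 RIP and 64.1% in the YTHDF2 RIP, 37.4% and 52.8% with scaling to nuclear protein-coding genes, and 26.7% and 42.7% by median of ratios. The same scalings moved the median of all genes in the YTHDF2 RIP to 0.10 and -0.00 (0.26 as deposited), and the median of the 10 genes to -0.89 and -1.01 (-0.72 as deposited).

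The labels do not say what the replicate numbers mark. Deviations of same-numbered libraries correlated at 0.68 between the RIPs, but at -0.14 between either RIP and input, so the main fit did not take the numbers as pairs. The comparison between the RIPs was thus fitted as unpaired too, although their same-numbered libraries deviated together. The replicate block covered input as well, and a fit paired between the RIPs alone was not run. With a replicate block the calls over all genes were 1432 in the YTHDF1 RIP, 3349 in the YTHDF2 RIP and 2 between the RIPs, and of the 10 genes 2 (Ptn, Aqp4), 1 (Fabp7) and 0. With the block and the correction together they were 873 in the YTHDF1 RIP, and of the 10 genes 1 (Aldoc) there and 2 (Aldoc, Hopx) in the YTHDF2 RIP. With 2 libraries a group and no read counts, differences the size of those of Hepacam, Clu and Gfap could not be resolved.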
